A study of Mus musculus with 8 samples.

Results

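Nefl, Nefm, Nefh, Ina and Prph encode the intermediate filament proteins of neurons, and these 5 genes were followed in the olfactory mucosa of mice that lost Lhx2 from mature olfactory sensory neurons (OSNs). They were found by symbol among 19938 genes that had a transcript cluster assigned to a single symbol on the Affymetrix Mouse Gene 1.0 ST array. Each of Nefl, Nefm, Nefh and Prph had 1 cluster and Ina had 2, so 6 of 23410 named clusters were theirs. The genes were picked with their knockout and control values already known. Those values are therefore given as a description, with no p-value. How many of the 5 passed limma's threshold is counted only to set it beside the share of all clusters, and nothing is supported by it.

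The tested mice were 4 OmpCre:Lhx2(fl/fl) animals, here called knockouts, in which Cre made from the targeted Omp locus can delete both floxed copies of Lhx2. The 4 littermate controls could recombine at most 1 copy: 3 were OmpCre:Lhx2(fl/+), and 1 (control replicate 1) was Lhx2(fl/+) without Cre. All 8 were of a mixed 129 x C57BL/6J background and 26 days old, and 1 whole olfactory mucosa was measured on 1 array per mouse. Because the targeted Omp allele makes Cre in mature OSNs, other cells of the mucosa and OSNs that had not recombined still carried an intact Lhx2, and the sample is a mixture of all of them.

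Neurofilaments are copolymers that fill the axon. The light chain, NF-L (Nefl), forms the core, while the medium and heavy chains, NF-M (Nefm) and NF-H (Nefh), add long phosphorylated tails that project from it and help to set axon calibre. Alpha-internexin (Ina) joins them mainly in central and developing neurons, and peripherin (Prph) joins them in neurons with peripheral axons. OSN axons are very thin and unmyelinated, and in rat these neurons are known for containing vimentin, an intermediate filament otherwise typical of non-neuronal cells.

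Values are log2 expression values, so a difference of 1 is a doubling. They compare mice for 1 gene, and levels of different genes are not compared because each cluster has its own probes. Lhx2 itself was 12.03, 11.99, 12.18 and 12.16 in knockouts, against 12.39, 12.33, 12.29 and 12.33 in controls, a decrease with no overlap (-0.25 ± 0.06, SE; limma adjusted p = 0.0383). Leaving out a single mouse ended this call (adjusted p 0.0566 to 0.13) unless that mouse was knockout replicate 3. It also ended after centring on the array median (-0.19, adjusted p = 0.117) and when unnamed clusters were included (adjusted p = 0.0788). Across the array, 492 clusters were called higher and 1473 lower in knockouts at an adjusted p under 0.05, which became 1028 higher and 1342 lower when each array was centred on its median. The median change over all 23410 clusters was 0.05.

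Promoter sequence was at hand for Ina, which was higher in knockouts, and for Prph, which differed little, and both are shown because Lhx2 is a homeodomain factor, a class that binds promoters and enhancers. They are the 250 bases before the start site in RefSeq (GRCm38.p6, plus strand), at chr19:47014431-47014680 for Ina and chr15:99054924-99055173 for Prph, written 5′ to 3′. Capitals mark a TATA box (TATAAA) and GC boxes (GGGCGG, or CCGCCC on the other strand).
Ina: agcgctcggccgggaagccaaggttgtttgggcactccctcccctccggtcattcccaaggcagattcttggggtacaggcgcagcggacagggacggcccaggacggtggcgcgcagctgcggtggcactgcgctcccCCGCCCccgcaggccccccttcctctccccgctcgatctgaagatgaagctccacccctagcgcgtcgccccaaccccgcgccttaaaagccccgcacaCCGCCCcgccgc
Prph: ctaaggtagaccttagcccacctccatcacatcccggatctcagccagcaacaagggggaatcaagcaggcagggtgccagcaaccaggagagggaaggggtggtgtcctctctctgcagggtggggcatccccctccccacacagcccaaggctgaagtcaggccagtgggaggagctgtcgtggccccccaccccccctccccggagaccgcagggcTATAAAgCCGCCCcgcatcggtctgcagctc

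Both stretches are rich in G and C, 70.8% of the Ina bases and 65.2% of the Prph bases, against a median of 52.4% over 32851 mouse promoter stretches of the same length. Prph has a TATAAA that begins at position -31, counted from the start site, a word that 12.4% of all promoters hold on either strand, followed by a GC box at -24. Ina has no TATAAA and has GC boxes at -111 and -12, a word found in 32.7% of promoters. The homeodomain word TAATTA (4.84% of promoters) and the shorter TAAT that it contains (54.9%) occur in neither stretch on either strand. The same holds for CCCNNGGG, the core of the O/E site bound by Ebf factors (11.8% of promoters). These letters are a description of 250 bases and say nothing about binding elsewhere.

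Nefl, the core subunit, had the largest difference of the 5 genes. Its values were 8.65, 8.42, 8.69 and 8.49 in knockouts and 7.52, 7.60, 7.56 and 7.67 in controls. The lowest knockout lay 0.75 above the highest control, and the 3 controls with Cre were close to the 1 without, which was the lowest. The means were 8.56 ± 0.13 in knockouts and 7.59 ± 0.06 in controls (SD, n = 4 each), a log2 change of 0.97 ± 0.08 (SE) or 1.97-fold. Of the 23410 clusters, 36 had a higher change.

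Nefh, which encodes the heavy chain with the longest tail, was nearly doubled as well. Its values were 9.49, 9.38, 9.11 and 9.38 in knockouts, against 8.32, 8.45, 8.46 and 8.41 in controls, with a gap of 0.65 between the groups. Knockout replicate 3 was the lowest of its group for Nefh but the highest for Nefl. The change was 0.93 ± 0.08 (1.91-fold), and 43 of the 23410 clusters had a higher one.

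Nefm, the medium chain, differed less. It was 6.28, 6.26, 6.22 and 6.44 in knockouts and 6.00, 5.96, 6.06 and 6.15 in controls. All 4 knockouts were above all 4 controls, but only by 0.07 at the closest point. The change was 0.25 ± 0.07 (1.19-fold), and 1134 of the 23410 clusters had a higher one. A signal this low lies nearer the array's background, and how far that held the change down was not tested.

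Ina, found early in developing neurons, was measured by a pair of clusters. In the one with the higher mean, knockouts had 11.05, 11.08, 10.98 and 11.15 and controls had 10.38, 10.72, 10.77 and 10.69. Control replicate 1, the mouse without Cre, was the lowest, and the change of 0.43 ± 0.09 (1.35-fold) was 0.34 without it. The other Ina cluster gave 10.99, 11.05, 10.96 and 11.04 in knockouts, against 10.53, 10.74, 10.59 and 10.54 in controls. Its change was 0.41 ± 0.07, and the lowest knockout was above the highest control by 0.22 in this cluster and by 0.21 in the other.

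Prph was the exception. Its values were 8.85, 8.98, 9.26 and 8.99 in knockouts and 8.84, 9.01, 8.98 and 8.85 in controls. The groups overlapped, and only knockout replicate 3 was above all controls. The change was 0.10 ± 0.09 (1.07-fold), and 0.02 without knockout replicate 3. Of all clusters, 69.8% had a lower change than Prph. Control replicate 1, the mouse without Cre, was the lowest control for Nefl, Nefh, Prph and both Ina clusters, but not for Nefm. Without it the change was 0.95 for Nefl, 0.90 for Nefh and 0.08 for Prph. Any part of Cre itself in these values was not tested.

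**Figure D1:**
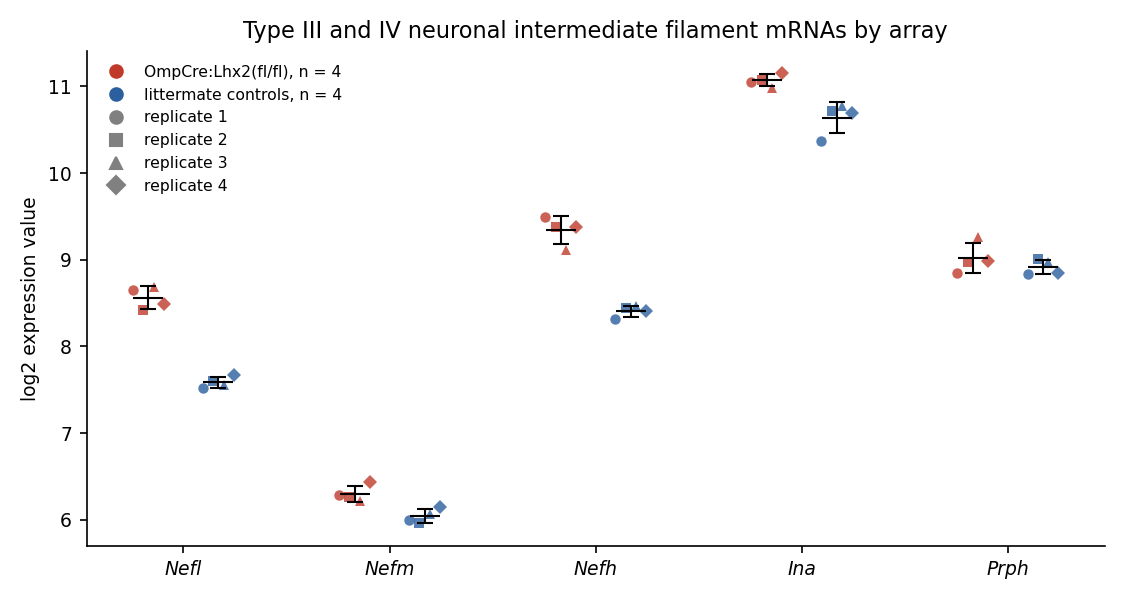
Log2 expression value (y axis) of Nefl, Nefm, Nefh, Ina and Prph (x axis) on each array, in 4 knockouts (red, left) and 4 littermate controls (blue, right), with the mean and SD in black. Knockouts lie above controls without overlap for Nefl, Nefm, Nefh and Ina, and the groups overlap for Prph.

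In limma, 3 of the 5 genes (Nefl, Nefh and Ina) were called higher and none lower, where 2.10% of all clusters were called higher, 6.29% lower and 8.39% in either direction. All 4 knockouts were above all 4 controls for 4 of the 5, against 6.42% of all clusters, and below them for none, against 7.83%. Since the genes were chosen on this contrast, nothing is read from these shares. The count left out Ina when knockout replicate 4 was dropped (0.40) and with the methods' t-test. It took in Nefm when control replicate 4 was dropped (0.29), after centring on the array median (0.31) and with array weights (0.29). Nefm was also counted with the first digit of the mouse numbers as a block (0.25). Relative to mature OSN markers, both Nefm (0.84) and Prph (0.69) were counted, but there 21827 of the 23410 clusters were called higher.

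The mouse numbers in the sample titles begin with 5, 7 or 9, and sets of mice sharing a first digit held 2, 1 and 1 knockouts and as many controls. Control replicate 1, the only mouse without Cre, was among those with a 5. The labels do not say what these digits mean. Within them the Nefl difference was 0.97, 1.13 and 0.82, that of Nefh was 1.05, 0.65 and 0.97, and that of Nefm was 0.29, 0.16 and 0.28. For Ina it was 0.52, 0.21 and 0.46. For these 4 genes all 4 knockouts were above all 4 controls, so a difference above 0 within each digit was fixed in advance. Nothing is read from its sign. Prph had -0.011, 0.29 and 0.14.

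Subtracting 1 gene from another on the same array restates these changes pair by pair. The genes were chosen on this contrast, and how often other pairs of genes separate was not counted. Nefl minus Nefh was -0.78 ± 0.24 in knockouts and -0.82 ± 0.07 in controls (SD, n = 4 each), a difference of 0.04 with overlapping groups, so the light and heavy chains shifted by similar amounts. Nefl minus Nefm was 2.26 ± 0.19 in knockouts and 1.54 ± 0.06 in controls, a difference of 0.72 with no overlap. Only 14.5% of clusters had a lower level than Nefm, and how far its low signal held its change down was not tested. Nefl minus Ina shifted by 0.55 and Nefl minus Prph by 0.87, both without overlap. Nefm minus Prph (0.15), Nefm minus Ina (-0.17) and Ina minus Prph (0.33) overlapped between the groups.

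Within the groups, the 5 genes did not move as a block from mouse to mouse. After the group means were removed, the correlation over the 8 arrays was -0.27 between Nefl and Nefh, -0.11 between Nefl and Nefm and 0.33 between Nefm and Nefh. Nefh and Ina had the highest r, 0.54, and Nefh and Prph the lowest, -0.70. These describe 8 arrays that share 2 group means. Among 9877 genes brighter than the median cluster, those that tracked each gene most closely in this way were Chchd6 for Nefl (r = 0.98), Thap7 for Nefm (0.98), Qser1 for Nefh (0.98), Atp6ap1 for Ina (0.98) and U2af1 for Prph (0.97). The next were Rundc3b and Tpd52l2 for Nefl (0.94 each), AW549877 (0.97) and Epb41l1 (0.93) for Nefm, and Kcnj2 and Stk38l for Nefh (0.97 each). For Ina they were Tepsin (0.98) and Slc25a30 (0.95), and for Prph Rab33a (0.97) and Psma5 (0.96). With so few arrays, between 8 and 52 genes reached an r of 0.9 with each of the 5. Of these 15 genes 1 was called between the groups, where 8.39% of all clusters were called in either direction, so nothing is read from this count. It was Kcnj2, a potassium channel, which was lower in knockouts (-0.46, limma adjusted p = 0.001).

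Nefl and Nefm are direct neighbours on chromosome 14, Nefh is on chromosome 11, Prph on 15 and Ina on 19. The chromosome and gene order come from RefSeq (GRCm38.p6), and up to 4 protein-coding genes on each side were read. Of 30 measured neighbours, limma called none (at an unadjusted p under 0.05, 2 lower and 2 higher, and 0 with the methods' t-test), and their changes ran from -0.46 (Adamdec1) to 0.20 (Kctd9). Over all 23410 clusters, 2076 were lower and 2176 higher at that unadjusted threshold, and 1266 and 438 with the methods' t-test. Dock5, on the other side of Nefl from Nefm, was at -0.09 ± 0.09, and Gnrh1, beyond it, at 0.17 ± 0.16. Thoc5 and Ap1b1, which flank Nefh, were at -0.0092 and 0.03, and Nt5c2 and Pcgf6, which flank Ina, were at 0.01 and 0.13. Nefl, Nefh and Ina were chosen on this contrast and their neighbours were not, so nothing is read from the difference between them.

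**Figure D2:**
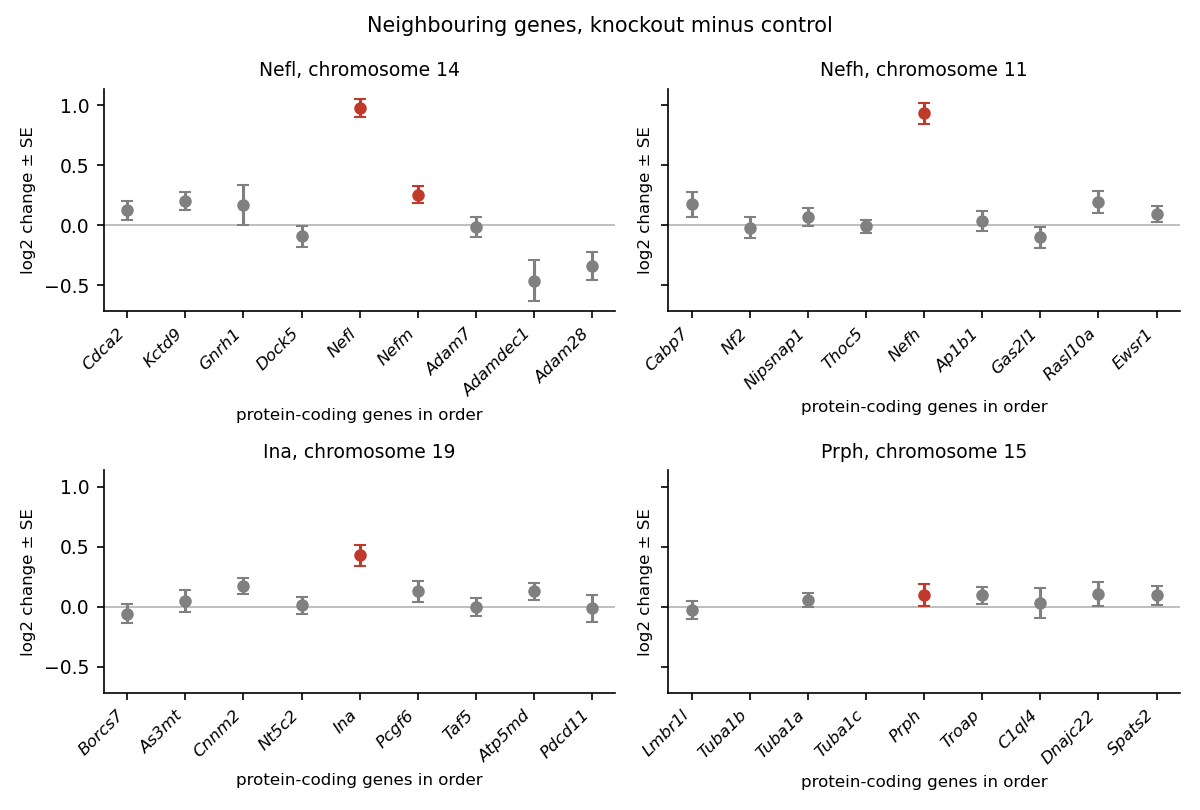
Log2 change, knockout minus control, with its SE (y axis) for Nefl, Nefh, Ina and Prph (red, with Nefm beside Nefl) and the protein-coding genes around each in chromosomal order (grey, x axis; a gene without a point was not measured by a cluster of its own). Nefl (0.97), Nefh (0.93) and Ina (0.43) were chosen on this contrast. The grey neighbours were not, and lie between -0.46 and 0.20.

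Genes for proteins that build, carry or anchor filaments were examined as lists, described beside the median of 0.05 over all clusters. The counts in brackets go beside those over all 23410 clusters: 2076 lower and 2176 higher unadjusted, 1266 and 438 with the methods' t-test. The other intermediate filament genes, 14 in all, had a median change of 0.07, and limma called none (at an unadjusted p under 0.05, 0 lower and 2 higher, 0 with the methods' t-test). Vim, for vimentin, was 13.20, 13.22, 13.13 and 13.16 in knockouts, against 13.07, 13.12, 13.06 and 13.00 in controls, a change of 0.11 ± 0.06 (adjusted p = 0.344). Krt8, an epithelial keratin, was at 0.07 ± 0.09 (adjusted p = 0.743), a direction that turned with array weights (-0.019).

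Among 10 transport motor genes, 1 fell and none rose (at an unadjusted p under 0.05, 1 lower and 2 higher, 1 and 0 with the methods' t-test), with a median of -0.025. Myo5a, a myosin that binds NF-L and affects neurofilament density in axons, was 10.28, 10.21, 10.14 and 10.19 in knockouts and 10.53, 10.46, 10.54 and 10.60 in controls. The groups did not overlap, and the change was -0.33 ± 0.06 (limma adjusted p = 0.00572). Scaled to the mature OSN markers it was higher instead (0.26). Kif5a, the kinesin that carries neurofilaments, was at 0.06 ± 0.06 (adjusted p = 0.676); it was chosen after its value was seen.

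Of 9 linker and turnover genes and 8 kinase genes, limma called none (for linkers 0 at an unadjusted p under 0.05 and 1 higher with the methods' t-test, and for kinases 0 lower and 2 higher, and 0). Their medians were 0.0061 and 0.0070. Macf1, a linker of actin and microtubules, was at -0.12 ± 0.06 and Tbce, a tubulin chaperone linked to motor neuron disease in mice, at 0.08 ± 0.12. Gsk3a and Gsk3b, kinases that act on neurofilament tails, were at -0.046 ± 0.06 and -0.025 ± 0.06, and both turned above 0 when arrays were centred on their medians (0.012 and 0.033).

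Axonal microtubule genes held 1 change among 13, an increase of Tubb3 (at an unadjusted p under 0.05, 3 lower and 4 higher, 1 and 1 with the methods' t-test), and a median of 0.06. Tubb3, a tubulin specific to neurons, was 11.17, 11.08, 11.21 and 11.12 in knockouts, against 10.69, 10.73, 10.76 and 10.74 in controls, 1.33-fold higher with no overlap (0.41 ± 0.06, limma adjusted p = 0.00076). It was called under every alternative setting run. The axon injury and regrowth list, genes that neurons raise after axon damage, had a median of 0.13, and limma called none of 11 (at an unadjusted p under 0.05, 0 lower and 4 higher, 0 with the methods' t-test). Its brightest members were Stmn2 (0.19 ± 0.06, adjusted p = 0.108) and Sox11 (0.13 ± 0.06, adjusted p = 0.263). Stmn2 passed with array weights (adjusted p = 0.0459) and with an intensity trend (adjusted p = 0.0247).

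**Figure D3:**
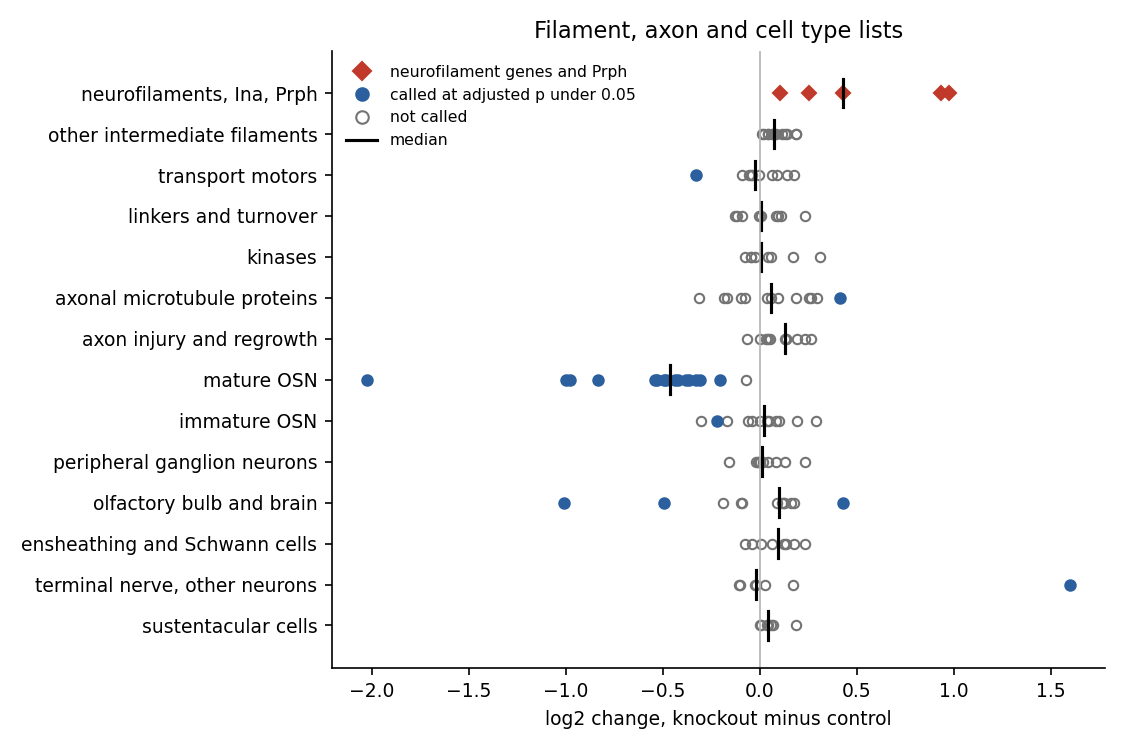
Log2 change, knockout minus control (x axis), of the neurofilament genes, Ina and Prph (red diamonds) and of each gene in the filament, axon and cell type lists (circles, filled where limma called the gene), with the median of each row as a black bar. The mature OSN list lies below 0 (median -0.46), while the other lists centre near 0.

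Markers of cell types of the mucosa, of peripheral ganglia and of the olfactory bulb and brain were set beside these values. The mature OSN list was lower in knockouts. Of its 16 genes, 15 fell and none rose (at an unadjusted p under 0.05, 15 lower and 0 higher, 14 and 0 with the methods' t-test). Its mean level per array was 11.68 to 11.78 in knockouts and 12.30 to 12.33 in controls, with a median change of -0.46. Cnga4 (-2.02), Cnga2 (-0.49) and Gng13 (-1.0), parts of the odor transduction pathway, had the smallest p-values (limma adjusted p = 3.12e-06, 0.000172 and 0.000181). In whole mucosa, fewer cells of a type and less RNA per cell cannot be told apart. When each array was scaled to the mean of these 16 genes, every change rose by 0.59 and became 1.56 for Nefl, 1.52 for Nefh, 1.02 for Ina, 0.84 for Nefm and 0.69 for Prph. The study rescaled to a far longer set of mature OSN mRNAs, so these values do not stand for its rescaling. With the 16 genes, the median change over all clusters was 0.64, and Prph was close to it.

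**Figure D4:**
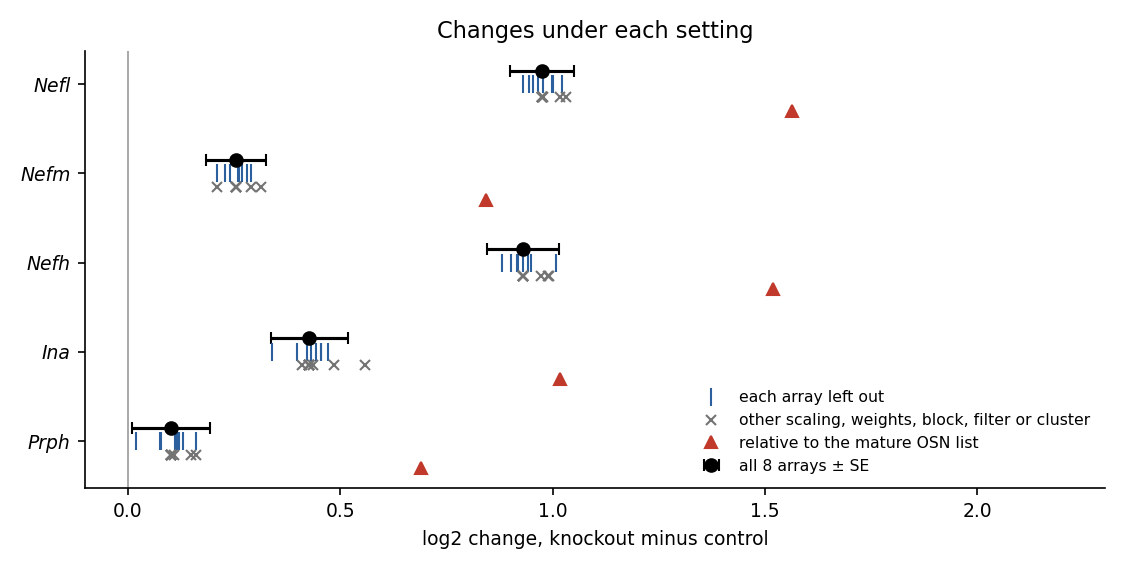
Log2 change, knockout minus control (x axis), of each gene (y axis) with all 8 arrays (black, SE), with each array left out (blue ticks), under other settings (grey crosses) and scaled to the mature OSN markers (red triangles). Nefl stays between 0.93 and 1.03 and Prph between 0.02 and 0.16 under all settings but the last.

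The immature OSN list had a median of 0.02, with 1 of 12 genes lower and none higher (at an unadjusted p under 0.05, 3 lower and 2 higher, 1 and 0 with the methods' t-test). That gene was Ncam1, a cell adhesion molecule (-0.22 ± 0.05, adjusted p = 0.0303), which is made in mature OSNs as well. Its call ended when any mouse but knockout replicate 3 or control replicate 4 was left out (adjusted p 0.0713 to 0.0969) and after centring on the array median (adjusted p = 0.117).

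Peripherin and neurofilaments are abundant in peripheral ganglion neurons, whose axons reach the nose, and in projection neurons of the brain. Of 10 ganglion markers limma called none (0 at an unadjusted p under 0.05 and 0 with the methods' t-test), the median was 0.0092, and their mean level was 6.59 to 6.65 in knockouts and 6.52 to 6.68 in controls. Isl1 (0.04 ± 0.08) and Avil (0.08 ± 0.06) were the brightest. Olfactory bulb and brain markers, with a mean level of 8.27 to 8.30 in knockouts and 8.26 to 8.41 in controls and a median of 0.10, changed in both directions. Of 12, 2 fell and 1 rose (at an unadjusted p under 0.05, 3 lower and 1 higher, 2 and 0 with the methods' t-test). Eomes, a T-box factor of mitral cells, fell by 1.01 (adjusted p = 0.000147) and Slc1a2, a glutamate transporter, by 0.49 (adjusted p = 0.00339). Slc17a7, a vesicular glutamate transporter of projection neurons, rose by 0.43 ± 0.11 (adjusted p = 0.0388), with 7.65, 7.36, 7.43 and 7.69 in knockouts, against 7.06, 7.36, 6.91 and 7.11 in controls. That call ended when any mouse but knockout replicate 2 or control replicate 2 was left out (adjusted p 0.0529 to 0.12). The part of either cell type in the neurofilament values was not tested. Which cells of the sample made the Eomes, Slc1a2 and Slc17a7 RNA was not tested either.

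Glial and supporting cells differed little. Of 8 ensheathing and Schwann cell genes and 7 sustentacular cell genes limma called none (0 lower and 1 higher, and 0, at an unadjusted p under 0.05, and 0 for both with the methods' t-test), with medians of 0.09 and 0.04. Fabp7 and Gldn were at 0.12 ± 0.08 and 0.17 ± 0.09, and Cyp2g1 and Cbr2 at 0.04 ± 0.05 and 0.06 ± 0.07. Among 7 genes of the terminal nerve and of less common olfactory cells, 1 rose and none fell (1 higher at an unadjusted p under 0.05 and with the methods' t-test): Pde2a, a phosphodiesterase of guanylyl cyclase D neurons, by 1.60 ± 0.11 (adjusted p = 6.36e-06). Gucy2d, the cyclase that defines those neurons, was at -0.11 and was not called; it was chosen after its value was seen.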

How the data were processed

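Olfactory mucosae of 8 mice were hybridised to 1 array each. The deposited values are log2 expression values per transcript cluster, made by the authors with Affymetrix Expression Console (version and settings not given in the sources used here), each combining a gene's exon probe sets. They ran from 2.35 to 14.6 and were used as deposited. Of 35557 clusters, 23410 carried a gene symbol and entered the fit. Gene names came from the 21789 with a single symbol (21698 updated by Entrez ID through RefSeq). A gene with several clusters was read from the one with the highest mean.

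The genotype comparison used limma 3.58.1 (lmFit, eBayes; R 4.3.3) without covariates, with Benjamini-Hochberg adjustment over 23410 clusters and a threshold of 0.05. The script was tested on simulated data. Groups came from the phenotype label. Replicate numbers follow accession order and pair nothing. Litters gave mice of both groups, but which mice shared one is not given. The genes and all lists were chosen with earlier results of these data known. The named genes are the 5, Lhx2, Omp, up to 3 called genes per list with the smallest p (or the 2 brightest where none was called) and the 3 genes with the highest within-group r. Omp, the gene that carries Cre, was 12.88, 12.80, 12.37 and 12.43 in knockouts, against 13.78, 13.56, 13.22 and 13.27 in controls (-0.84, limma adjusted p = 0.00568). The highest control was replicate 1, the mouse without Cre, and the change was -0.73 without it. With the methods' t-test Omp was not called (adjusted p = 0.0526). Any part of the targeted allele itself in the Omp values was not tested. Alternatives covered scaling, weights, the title digit as a block, an intensity trend, the methods' t-test, dim and unnamed clusters and leaving out each mouse. Arrays give no counts, so their number limits the precision. Figures were drawn with matplotlib 3.10.9.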

Additional observations from a re-analysis of the deposited data

Results flagged for a closer look

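Genes named only for their within-group r were not screened for outliers. The 5 genes (with both Ina clusters), Lhx2, Omp and the list genes named by rule gave 64 groups of 4 values, knockouts and controls apart. Of these groups, 5 held a mouse far from the other 3 by Dixon's criterion, which chance passes in about 1 of 20 groups. None was in Nefl, Nefm, Nefh, Ina or Prph. Knockout replicate 3 was apart for Cnga2 (12.56, the others 12.65 to 12.66), Gsk3b (11.84, the others 12.02 to 12.05) and Stmn2 (13.18, the others 13.01 to 13.03). Control replicate 2 was apart for Cnga2 (13.13, the others 13.11 to 13.12) and Gsk3a (11.56, the others all 11.49).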

How the results depend on the processing

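Leaving out each mouse gave changes of 0.93 to 1.02 for Nefl, 0.21 to 0.29 for Nefm, 0.88 to 1.01 for Nefh, 0.34 to 0.47 for Ina and 0.02 to 0.16 for Prph, with 2 to 4 of the 5 called, 1302 to 1421 clusters lower and 304 to 563 higher. The higher count was 304 without control replicate 1 and 318 without knockout replicate 4. Clusters called higher numbered 1028 after centring on the median, 1086 with array weights and 975 with the title digit as a block. Among only the clusters above the median level, 760 were called lower (Nefl and Nefm are below it and were not tested there). That fit tested fewer clusters, so its count cannot be set against the 1473 of the main fit. Relative to the mature OSN list, changes were 1.56 (Nefl), 0.84 (Nefm), 1.52 (Nefh), 1.02 (Ina) and 0.69 (Prph), all 5 were called, and 775 clusters were lower and 21827 higher. By construction this setting raises every gene by the fall of the 16 listed genes (0.59), and it reversed Cnga2 (0.10), Gsk3a (0.54), Gsk3b (0.56), Lhx2 (0.34), Macf1 (0.47), Myo5a (0.26), Ncam1 (0.37) and Slc1a2 (0.096). Other reversals were of uncalled genes: Gsk3a (0.012) and Gsk3b (0.033) after centring on the median, Krt8 (-0.019) with array weights, Gsk3b (0.022) without knockout replicate 3 and Isl1 (-0.0077) without knockout replicate 1, within leave-one-out ranges of -0.047 to 0.022 and -0.0077 to 0.089. The causes of these were not tested. The replicate numbers follow accession order and pair no mice, so only the title digit was used as a block.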
